A study of Mus musculus with 3 samples.

Results

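Stretches of the mouse autosomes in which YY1 binding sites were called most densely were described here at a resolution of 1 Mb. The 19 autosomes were cut into 1 Mb bins from position 0, and each peak interval of the replicate 2 sample was assigned to the bin that held its midpoint. Of the 2417 bins with an interval, the last of each chromosome was dropped, which left 2398, and the 10% with the most replicate 2 intervals were taken (239.8 bins, rounded to 240). The members were thus chosen by their replicate 2 counts, and those counts are a description. The replicate 1 sample had no part in the choice, and its intervals are the check. The dense bins held 18576 of the 108742 replicate 2 intervals in the bins kept (17.1%) and 439 of the 3421 replicate 1 intervals (12.8%).

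The study mapped YY1 in cardiac progenitor cells by ChIP-seq (sequencing of the DNA recovered with an antibody to the bound protein), to find its putative target genes. Mouse embryonic stem cells (strain C57BL/6 per the labels) carrying a transgene in which Nkx2.5 drives green fluorescent protein were differentiated as embryoid bodies for 6 days, and the eGFP+ cells were sorted. All 3 samples share this line, day and sort. Both ChIP samples used an anti-YY1 antibody from Santa Cruz (SC-1703, lot L3108) on separately sorted cells. The third sample is an input without antibody, not analysed here. Expression was not measured, so the cell type was not checked against markers, and cells that express the reporter are defined by the transgene alone.

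YY1 is a ubiquitous zinc-finger protein that binds a short DNA motif, mostly at promoters and enhancers, where it can activate or repress transcription. It also helps to join promoters to enhancers in loops and acts with chromatin-modifying complexes. Mammalian chromosomes alternate at the megabase scale between stretches rich in genes and in G and C and stretches poor in both. Mouse autosomes have their centromere at the start of the chromosome, so the highest coordinates lie at the end far from the centromere. The lists are on the mm9 build. No mm9 sequence or gene annotation was used here, so the bins are given by position, without genes and without sequence.

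The 2 lists differed widely in size. Replicate 2 held 115109 intervals and replicate 1 held 3691, a ratio of 31.2, and the reads behind them are unknown. A dense bin therefore held 66 to 111 replicate 2 intervals but seldom more than a few of replicate 1. There is 1 list per sample, so the 95% intervals below (exact binomial) cover counting error only, and no p-value is given. Replicate 1 counts varied more between bins than independent counts would, with a variance of 1.37 times the mean in the dense bins and 1.58 times in the others. The true intervals are therefore wider than those printed.

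Dense bins held 77.4 ± 10.3 replicate 2 intervals (mean ± SD over 240 bins), with a median of 75 and quartiles of 69 and 82. The other 2158 bins held 41.8 ± 12.2, from 2 to 66. The threshold lay within a broad, single-peaked distribution, as the histogram of intervals per bin shows. It fell among 28 bins with exactly 66 intervals, of which 18 were taken and 10 were not, in the order of chromosome and position. The last 3 taken were chr11:111000001-112000000, chr12:12000001-13000000 and chr12:111000001-112000000, with 0, 3 and 2 replicate 1 intervals. The first 3 left out were chr12:113000001-114000000, chr13:44000001-45000000 and chr14:66000001-67000000, with 3 each. Bins on either side of the threshold were thus tied in replicate 2.

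**Figure D1:**
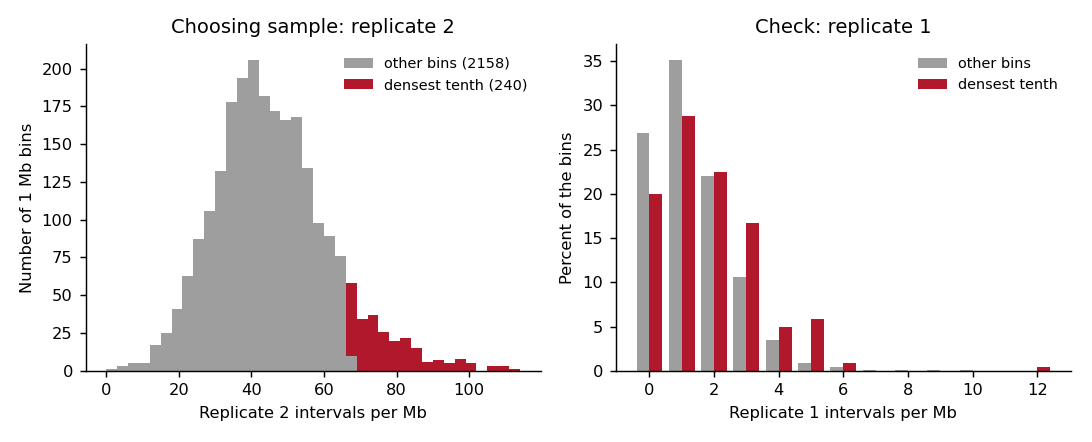
Left, number of 1 Mb bins by replicate 2 intervals per Mb, with the 240 densest bins in red on top of the 2158 others in grey. Right, percent of the dense (red) and other (grey) bins with each number of replicate 1 intervals, up to 12; bins with none make up 20% of the dense bins and 26.9% of the others.

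The densest bin was chr8:121000001-122000000. It held 111 intervals of replicate 2 and 5 of replicate 1. The next 3 all lay in the distal part of chromosome 5. The bin chr5:131000001-132000000 held 110 and 3 intervals, chr5:142000001-143000000 also held 110 and 3, and chr5:133000001-134000000 held 109 and 5. The last of these and chr17:87000001-88000000 each had 5 replicate 2 intervals scoring at least 1000, the most of any dense bin, the score being the value of the peak caller MACS by which stronger calls rank above weaker ones within a list.

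Not every bin at the top was matched in replicate 1. The bin chr5:119000001-120000000 held 106 replicate 2 intervals and none of replicate 1. Another bin with 106, chr17:49000001-50000000, held 1 of replicate 1. On chromosome 12 the adjoining bins 107000001-108000000 and 108000001-109000000 held 105 and 101 of replicate 2, against 3 and 1 of replicate 1. The remaining 2 of the 10 densest, chr8:117000001-118000000 and chr9:116000001-117000000, each held 101 of replicate 2, with 1 and 0 of replicate 1. Across these 10 bins the replicate 1 counts thus covered 0 to 5 while the replicate 2 counts stayed within 101 to 111.

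The dense bins with more than 5 replicate 1 intervals were not among the densest in replicate 2. The count was highest in chr4:129000001-130000000, with 12 replicate 1 intervals and 66 of replicate 2, at the threshold. Of those 12, 11 lay between 129880452 and 129885936 inside a single replicate 2 interval 6606 bp wide, so they mark 1 place, not 11. The bins chr5:148000001-149000000 and chr4:130000001-131000000 held 6 each, with 82 and 66 of replicate 2. A further 14 dense bins held 5, or 5.83% of the dense bins, against 19 of the others (0.880%). These 14 ran from the densest bin, chr8:121000001-122000000 (111 of replicate 2), down to chr1:169000001-170000000 (66), at the threshold. Among these 14 were also chr4:127000001-128000000 (100 of replicate 2), chr2:172000001-173000000 (98), chr2:169000001-170000000 (97), chr9:120000001-121000000 (95) and chr1:123000001-124000000 (93).

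At the other end, 48 dense bins (20%) held no replicate 1 interval, among them chr9:68000001-69000000 with 98 of replicate 2. The remaining 192 held at least 1, which is 80% (95% exact interval 74.4 to 84.9%), beside 73.8% of all bins kept. At least 3 were held by 69 dense bins, or 28.75% (23.1 to 34.9%), beside 17.2% of all bins. The share with any replicate 1 interval was thus a little above that of all bins, and the share with several stood further above it. In the next 240 bins by replicate 2 count, 82.1% held at least 1, so that share was not particular to the dense bins. The share with at least 3 was not compared with those bins.

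Replicate 1 intervals were more frequent in the dense bins than elsewhere, but by less than those of replicate 2. Dense bins held 1.83 ± 1.58 replicate 1 intervals (mean ± SD) and the other bins 1.38 ± 1.48. The ratio was 1.32 (95% interval 1.19 to 1.46), while the ratio of the choosing counts was 1.85. The choice raises the second ratio by itself, since it takes the bins where replicate 2 is high. Against the 239 bins with the fewest replicate 2 intervals (1.07 per bin), the ratio of replicate 1 densities was 1.71 (1.46 to 2.00). Against the next 240 bins in order, which held 58 to 66 replicate 2 intervals, it was 1.04 (0.904 to 1.19). That second decile includes chr7:71000001-72000000, whose 29 replicate 1 intervals were the most of any bin, and without it the ratio was 1.11 (0.964 to 1.27). The total of replicate 1 intervals thus did not separate the dense bins from the decile below them beyond counting error. For intervals that overlapped one of replicate 2 the ratio between these deciles was 1.36 (1.13 to 1.63). Dense bins held a mean of 77.4 replicate 2 intervals and the second decile 61.2, so there were more to overlap. How far this alone raises that ratio was not tested. Against all other bins, the ratio of totals was 1.34 without the bin on chromosome 7.

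**Figure D2:**
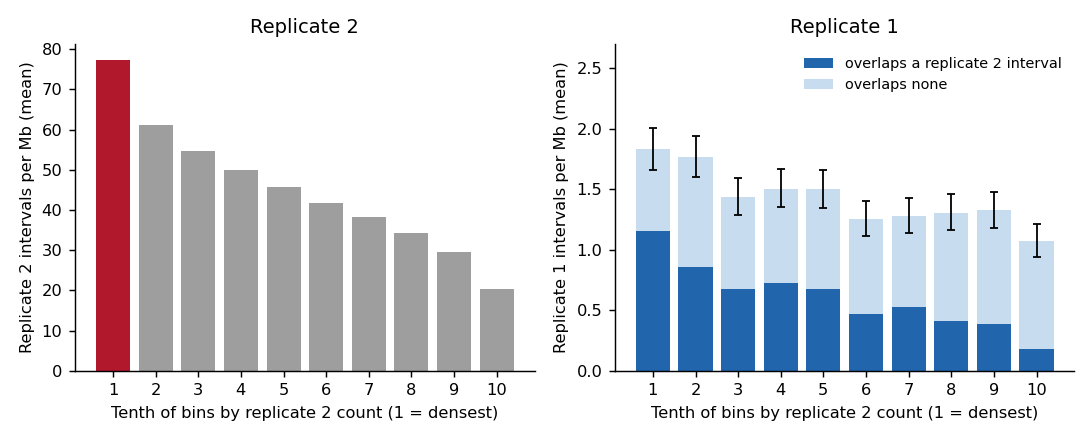
Mean intervals per Mb by decile of bins, ordered by replicate 2 count (1 = densest). Left, replicate 2, from 77.4 to 20.3. Right, replicate 1, split into intervals that overlap a replicate 2 interval (dark) and those that overlap none (light), with 95% exact Poisson intervals of the total; the dark part falls from 1.16 to 0.184 and the light part starts at 0.671, its lowest value.

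The excess in the dense bins lay in replicate 1 intervals that were also called in replicate 2. An interval was counted as shared when 1 bp or more of it lay in an interval from the other sample. Dense bins held 1.16 shared replicate 1 intervals per Mb and the others 0.546, a ratio of 2.12 (1.86 to 2.42). Unshared ones were at 0.671 and 0.836 per Mb, a ratio of 0.802 (0.679 to 0.943). Of the 439 replicate 1 intervals in dense bins, 278 were shared, or 63.3% (58.6 to 67.8%), against 1178 of 2982 elsewhere, or 39.5% (37.7 to 41.3%). The odds ratio was 2.64 (2.15 to 3.25). At least 1 shared interval was found in 151 dense bins, or 62.9% (56.5 to 69.0%), beside 43.2% of all bins.

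Sharing is not independent of the choice, because the replicate 2 intervals that were met are among those counted. They were few, 252 of the 18576 in dense bins. When only the replicate 2 intervals that overlapped none of replicate 1 chose the bins, 232 of the 240 bins were the same, and the ratio of shared intervals was 1.85 (1.61 to 2.13). That of unshared intervals became 0.962 (0.824 to 1.12). The bin chr7:71000001-72000000, with its 29 unshared intervals, was among the 8 that entered, and with it left out the ratio was 0.819 (0.693 to 0.963). With the original choice by all replicate 2 intervals, but in 0.5 Mb bins, the unshared ratio was 0.876 (0.746 to 1.02). Over 17 alternatives with an interval, that of the unshared ratio reached 1 under 11, so that the lower density of unshared intervals is not a firm result. That of the shared ratio reached 1 under 0 of 18. These alternatives cannot show that the shared excess is firm, because in each of them replicate 2 both chose the bins and defined the overlap. Intervals of replicate 2 covered 0.608% of the sequence of dense bins and 0.317% of the others, and how far this coverage alone raises the overlap was not tested.

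**Figure D3:**
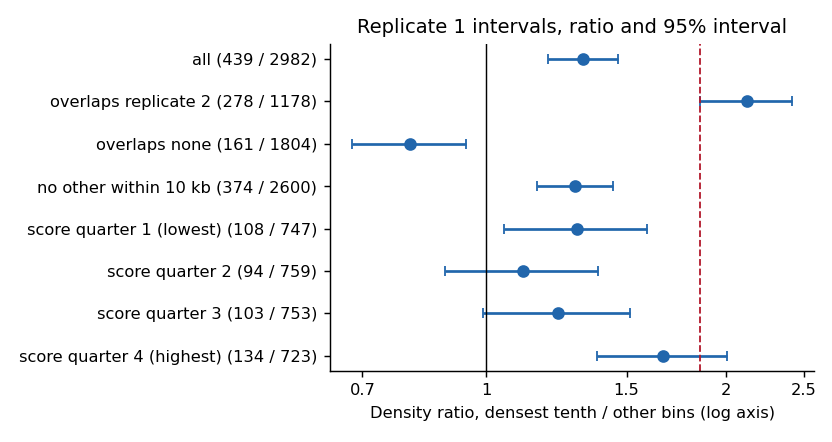
Ratio of replicate 1 intervals per Mb, dense over other bins, on a log axis with 95% exact intervals, and the numbers of intervals behind each in brackets. The dashed red line is the ratio of replicate 2 intervals, 1.85; shared intervals (2.12) lie above 1 and unshared ones (0.802) below.

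The replicate 1 density ratio was highest for the intervals with the highest scores. In the highest quartile of replicate 1 score (96.38 to 3149.52) the density ratio was 1.67 (1.38 to 2.01). From the lowest quartile upward the other 3 gave 1.30 (1.05 to 1.59), 1.11 (0.889 to 1.38) and 1.23 (0.991 to 1.51). The ratio of the highest quartile was 1.28 times that of the lowest (95% exact interval 0.967 to 1.70), 1.5 times that of the second (1.12 to 2.01) and 1.35 times that of the third (1.02 to 1.81). Several intervals of the highest quartile lay in chr4:129000001-130000000, inside the single replicate 2 interval 6606 bp wide. The ratios were not recomputed without them, and the true intervals are wider, so the lead of the highest quartile is not a firm result. In the highest quartile, 79.1% (71.2 to 85.6%) of the intervals in dense bins were shared, against 61.5% (57.9 to 65.1%) elsewhere. In the lowest it was 52.8% (42.9 to 62.5%) against 26.1% (23.0 to 29.4%). Dense bins thus had the higher shared fraction at both ends of the score range.

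The strongest places called in both samples that lay in dense bins were on 5 chromosomes. The interval chr14:121828495-121828751 scored 1898.41 in replicate 1, chr18:81861393-81861579 scored 1333.51, chr5:148525676-148526225 scored 1284.13, chr11:112200679-112201138 scored 1099.83 and chr4:129881137-129882070 scored 998.45. All 5 met a replicate 2 interval with the score of 3100, and these tied at rank 57.5 in replicate 2. The order of the 5 thus rests on replicate 1 alone. Those replicate 2 intervals were 218 to 926 bp wide, except that on chromosome 4, which was the one 6606 bp wide. Altogether 4 of 439 replicate 1 intervals in dense bins scored 1000 or more, and 9 of 2982 elsewhere.

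Replicate 2 intervals in dense bins were much like those elsewhere one by one. Their median score was 129.01 in dense bins, in the other bins and in the decile with the fewest intervals, and their median widths were 61, 61 and 60 bp. Each quartile of replicate 2 score contributed, with ratios of dense over other bins of 1.91, 1.83, 1.80 and 1.86 from the lowest to the highest. The extremes had somewhat higher ratios, for which counting error was not computed. Intervals scoring 1000 or more had a ratio of 2.02 (170 in dense bins and 757 elsewhere), and those wider than 200 bp had one of 2.25 (642 and 2564). At least 1 interval scoring 1000 or more was found in 117 dense bins (48.75%) and in 28.8% of the others, shares not compared at equal numbers of intervals. Higher density was thus a matter of more intervals of every strength, as a description of the sample that chose the bins.

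Within a dense bin the replicate 2 intervals were spread over the whole megabase. When each bin was cut into 10 parts of 100 kb, 230 of the 240 dense bins (95.8%) had an interval in every part, and the other 10 missed 1 part. Among the other bins 68.0% had an interval in every part, a share not compared at equal numbers of intervals. The part with the most intervals held a median of 17.1% of the bin's total, against 19.5% in the other bins. The most uneven dense bin was chr11:67000001-68000000, where 22 of 70 intervals (31.4%) lay in 1 part. It was followed by chr6:114000001-115000000, with 25 of 84, and chr1:130000001-131000000, with 21 of 74. In the median dense bin the fullest part held 13 intervals. Neighbours were closer in dense bins, where the nearest midpoint lay at a median of 3.53 kb against 6.32 kb elsewhere. Close neighbours, within 500 bp, were found for 14.3% of the intervals in dense bins and 8.94% elsewhere. Like the share in the fullest part, both depend on how many intervals a bin holds. They were not compared at equal numbers. Counting intervals less than 500 bp apart as 1 left 215 of the 240 bins among the dense.

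Dense bins lay beside one another. A dense bin adjoined 151 of the 240, or 62.9%, beside 16.4% of all bins kept. Both shares describe the replicate 2 counts that chose the bins, and adjoining is mutual, so no interval is given. The 240 bins formed 134 separate stretches, 89 of them single bins and 45 of 2 or more. The longest ran over 10 Mb on chr1:121000001-131000000 and held 814 replicate 2 and 17 replicate 1 intervals. Next came 9 Mb on chr5:129000001-138000000 with 776 and 19, and 9 Mb on chr2:165000001-174000000 with 769 and 24. Replicate 1 thus gave 1.70, 2.11 and 2.67 intervals per bin in the 3 stretches, and only the last had a replicate 1 interval in every bin. Single dense bins held 1.73 replicate 1 intervals each.

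Replicate 2 density around dense bins was highest next to them and fell off over several Mb. Bins 1 Mb before and after a dense bin held means of 64.4 and 64.8 replicate 2 intervals, but 106 of the 240 on either side were dense themselves. The neighbours that were not dense held 51.0 and 51.6 at 1 Mb, 47.9 and 47.5 at 2 Mb, and 45.1 and 45.5 at 5 Mb. At 10 Mb they held 43.3 and 42, against 41.8 over all bins that were not dense. In replicate 1 the neighbours that were not dense held 1.66 and 1.51 at 1 Mb, and 1.35 and 1.49 at 10 Mb, against 1.38. Between these distances their replicate 1 means varied from 1.33 to 1.59 with no steady decline. The 243 bins that adjoined a dense bin without being dense held 1.56 ± 1.57 replicate 1 intervals. This was 1.15 times (1.03 to 1.28) the density of the 1915 bins further off and below that of the dense bins, which exceeded it 1.17 times (1.02 to 1.35). Both lower limits lie close to 1 and the true intervals are wider, so neither difference is a firm result.

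**Figure D4:**
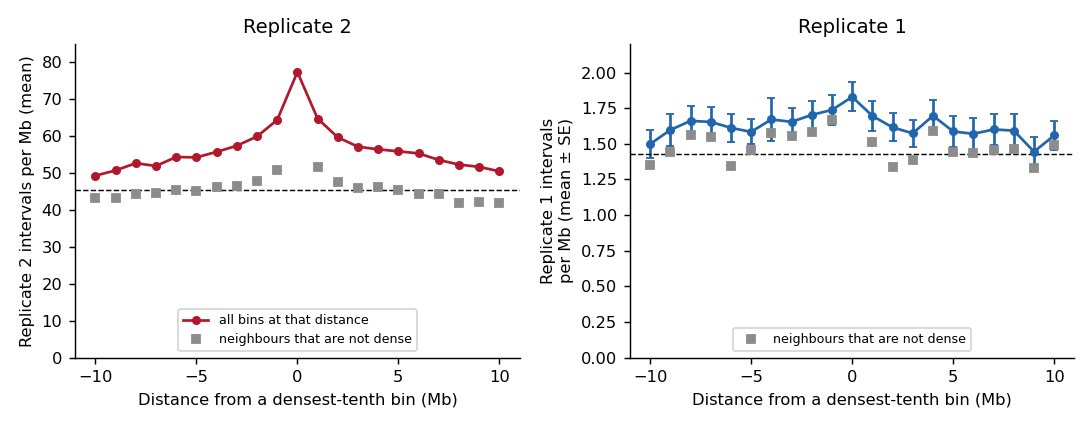
Mean intervals per Mb in bins at each distance from a dense bin, with distances below 0 toward the centromere, over all bins at that distance, dense ones included (circles, with SE over bins for replicate 1), and over those not dense (grey squares); dashed lines are the means over all 2398 bins (45.3 and 1.43). In replicate 2 (left) the squares fall from 51.0 and 51.6 at 1 Mb to 43.3 and 42 at 10 Mb, and in replicate 1 (right) they scatter on both sides of the line. The means over all bins that are not dense, which match the squares, are 41.8 and 1.38 (not drawn). Most replicate 1 squares lie above the latter.

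Dense bins were most frequent toward the chromosome end away from the centromere. Each chromosome's bins were divided into 5 equal parts by position, a division chosen after the bins were seen. The distal 20% held 130 of the 240 dense bins, and 27.5% of the bins there were dense, beside 3.76 to 6.89% in the other 4 parts. On 17 of the 19 chromosomes the distal part held more than 20% of that chromosome's dense bins. The exceptions were chromosomes 13 (1 of 8) and 17 (2 of 12). On chromosome 5, 18 of the 29 distal bins were dense, and on chromosome 4 it was 14 of 30.

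In replicate 1 the ratio of dense over other bins was higher in the distal part than elsewhere. In the distal 20%, dense bins held 2.19 replicate 1 intervals per Mb and other bins 1.53, a ratio of 1.43 (1.23 to 1.66). Over the remaining 80%, the 110 dense bins held 1.40 and the others 1.35, a ratio of 1.03 (0.873 to 1.22). The distal ratio was 1.38 times the other (95% exact interval 1.11 to 1.73). It was 1.33 times (1.07 to 1.67) without chr4:129000001-130000000, and 1.33 times (1.05 to 1.70) when only replicate 1 intervals with no other within 10 kb were counted. The true intervals are wider than these, and the division was chosen after the bins were seen, so the difference is not a firm result. Dense bins away from the distal ends thus did not hold detectably more replicate 1 intervals than their surroundings. Their replicate 2 counts were nearly as high, with a median of 73 against 77 for distal dense bins.

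Shared intervals were denser in dense bins in both parts of the chromosome, and a difference between the parts was not resolved. They were 2.00 times (1.64 to 2.44) as dense in the distal dense bins as in other distal bins, and 1.70 times (1.37 to 2.10) as dense in the dense bins elsewhere. The first ratio was 1.17 times the second (0.875 to 1.58). Unshared ones had ratios of 0.957 (0.757 to 1.20) in the distal part and 0.620 (0.467 to 0.808) elsewhere, the first 1.54 times the second (1.08 to 2.22). Away from the distal ends, dense bins thus held more shared and fewer unshared replicate 1 intervals by these counts, with nearly the same total. Sharing depends on the replicate 2 intervals that chose the bins, and the division was chosen after the bins were seen. The shared and unshared ratios were not recomputed under the alternatives within each part, so neither difference is a firm result.

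**Figure D5:**
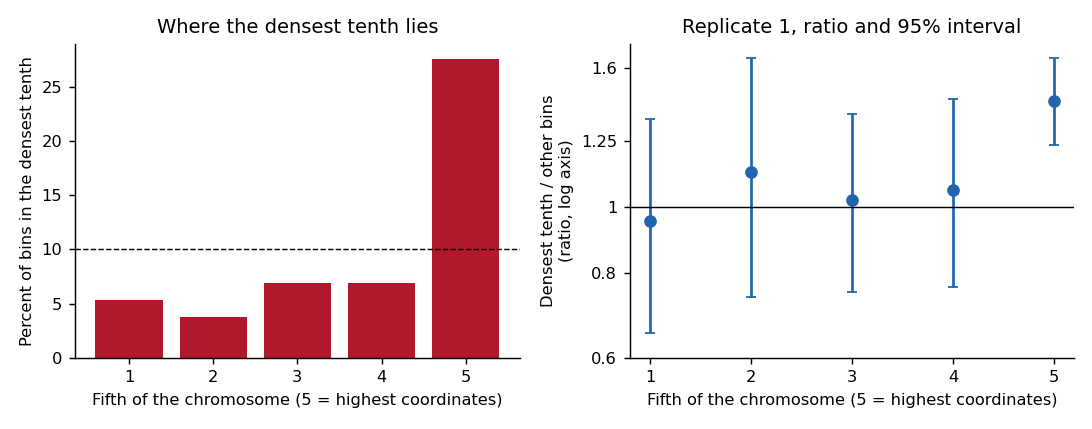
Left, percent of bins that are dense in each of 5 equal parts of the chromosomes, 5 being the part with the highest coordinates; the dashed line is 10% and the fifth bar reaches 27.5%. Right, ratio of replicate 1 density, dense over other bins, within each part, on a log axis with 95% exact intervals; only the distal ratio, 1.43, has an interval wholly above 1.

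Every autosome held dense bins, in unequal numbers. Chromosome 5 held the most, 26 of its 149 bins (17.4%), and chromosome 9 had 21 of 121 (17.4%). Chromosome 15 had 3 of 100 (3.00%) and chromosome 3 had 5 of 156 (3.21%). The order was not that of the replicate 1 densities, which were 1.40 and 1.34 per bin over chromosomes 5 and 9 and 1.54 and 1.44 over chromosomes 15 and 3. Within chromosomes, the mean replicate 1 count was higher in dense than in other bins on 16 of 19. The ratio's interval lay above 1 on chromosome 2 (1.66, 1.15 to 2.34), chromosome 4 (1.92, 1.37 to 2.66) and chromosome 18 (1.80, 1.03 to 2.98), and on none below 1. The mean was lower on chromosomes 13, 16 and 17, with ratios of 0.991, 0.850 and 0.997.

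Across bins the rank correlation between the counts of both samples was weak. Replicate 1 held a mean of 1.43 intervals per bin, and counts so low limit how high a correlation can be. Spearman's rho between the counts was 0.141 over all 2398 bins and 0.125 within the dense bins. All of these values share the replicate 1 list with its few intervals per bin. Over all bins rho was 0.276 with shared and -0.0729 with unshared replicate 1 intervals. Taking the 240 bins with the most replicate 1 intervals instead gave 43 of the dense bins, which is 17.9% of either list, where the dense bins make up 10% of all bins. That list ended within a tie, since 268 bins held 3 replicate 1 intervals.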

How the data were processed

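The deposited files are 1 list of peak intervals for each of 2 YY1 ChIP samples, called by the authors with MACS in Galaxy per the file headers, on mm9 per the submitters' processing notes. The aligner, the version and settings of MACS and the use of the input were not given in the sources used here. Each interval carries the score that the authors deposited, used here only within a list. Read depth is unknown, so precision rests on the number of intervals. Files were read as BED (starts counted from 0), and positions are printed counted from 1. A chromosome's last bin was the last that held a replicate 2 interval.

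Density ratios have exact conditional binomial intervals, shares exact Clopper-Pearson ones, at 95%. The computation was tested on simulated counts. Bins named were the 10 densest, the 10 with the most replicate 1 intervals, the 3 densest without one, those beside the threshold and the 3 longest stretches, with the 5 strongest shared intervals and the most uneven bins (these last chosen after their values were seen). Members and comparisons were chosen with earlier results of these data known. Alternatives varied the bins, the intervals counted and the overlap. The GRCm38 gene and promoter tables were not used here, because the lists are on another build. Intervals were computed with SciPy 1.17.1, tables with pandas 2.3.3 and NumPy 2.4.6, and figures with matplotlib 3.10.9, under Python 3.11.15.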

Additional observations from a re-analysis of the deposited data

How the results depend on the processing

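The replicate 1 density ratio, 1.32, stayed above 1 under its 18 alternatives and within its 95% interval under 17. The exception was the swap in which replicate 1 chose the bins and replicate 2 was counted, with 1.13. Shared intervals kept a ratio of 1.85 to 2.2 over 20 alternatives, and unshared ones a ratio of 0.779 to 0.962 over 19, whose interval reached 1 under 11 of the 17 that have one. The share of dense bins with a replicate 1 interval, 80%, was 57.5% with 0.5 Mb bins and 98.3% with 2 Mb bins, since smaller bins hold fewer intervals. The shared fraction in dense bins, 63.3%, was 56.0% when the densest 20% of bins were taken, 56.0% when only the 50% of replicate 2 intervals with the highest scores could be met, and 56.7% when unshared replicate 2 intervals chose the bins. The share of dense bins beside another, 62.9%, was 69.8% for the densest 20% of bins, where neighbours are more, and 49.4% when the 25% of replicate 2 intervals with the highest scores chose the bins; the cause of the last was not tested. The choice by unshared replicate 2 intervals, the omission of chr4:129000001-130000000, the rounding down of the decile, the strata by chromosome and position, the second decile without 1 bin, and the alternatives for shared and unshared intervals were added after seeing the data. No result could be recomputed without 1 replicate, because replicate 2 chose the bins and replicate 1 checked them. With few replicate 1 intervals per bin, single bins cannot be compared with each other.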
